A study of Danio rerio with 4 samples.

Results

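The zebrafish genes ptgs2 (ENSDARG00000004539) and ptger2 (ENSDARG00000037033) encode, by name, an inducible prostaglandin synthase and a receptor for prostaglandin E2, and were followed here as a pair. They were chosen by identifier, as 2 of the 20880 genes with a transcript in the analysed wells, after their values in these plates were known, so their levels, their differences between genotypes and their correlations are given as a description without a test. The human-style names PTGS2 and PTGER2 each stand for a second zebrafish gene as well (ENSDARG00000010276 and ENSDARG00000011434), and the names do not say which copy is a or b. Below, ptgs2 and ptger2 mean the chosen copies only.

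The study sorted single cells from cryoinjured ventricles of adult fish at 7 days post-injury and sequenced them by SORT-seq, in which each well of a plate receives 1 cell. The fish were homozygous for the prrx1b el491 allele, a nonsense mutation (prrx1b-/-), or wild-type siblings, and all carried tcf21:CreERT2 with a ubiquitous switch reporter that had been recombined in the embryo, so that epicardial cells and their descendants were mCherry-positive. The sample labels describe the line as Tg(tcf21:mCherry). The question behind the design is what the loss of Prrx1b changes in these epicardial-derived cells after injury. Each genotype has 2 plates of 384 wells, filled from pooled hearts, so the plates are not separate animals and their spread is in part technical. Recombination was driven by the tcf21 promoter, and only cells that recombined were sorted. Fish of both sexes were used, and ages were given only as a broad adult range.

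Prostaglandins are made when a phospholipase frees arachidonic acid from membranes, a cyclooxygenase (Ptgs1 or Ptgs2) turns it into prostaglandin H2, and a terminal synthase makes the final product, which is prostaglandin E2 where that enzyme is Ptges. Ptgs2 is the form that injury and inflammatory cytokines induce in many tissues. Prostaglandin E2 acts on neighbouring cells through several receptors, and the receptor encoded by ptger2, called EP2 in mammals, raises cyclic AMP.

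Wells with at least 1000 transcripts of annotated genes were kept, which left 366 and 366 wells in the prrx1b-/- plates, against 357 and 364 wells in the wild-type plates, 1453 in all. The median well held 7654 and 7543 transcripts in the prrx1b-/- plates, against 6055 and 5065 in the wild-type plates. The sorted cells had transcripts of the epicardial genes tcf21 (94.2 CPM over all wells, CPM being counts scaled to 1000000 transcripts of the plate or set of wells), tbx18 (89.3 CPM) and wt1b (271 CPM), whereas the 5 endothelial genes found summed to 6.85 to 12.7 CPM in a plate. The 8 leukocyte genes summed to 36.1 and 37.0 CPM in the prrx1b-/- plates, against 255 and 191 CPM in the wild-type plates. Most of the wild-type sums came from cd74a (133 and 78.9 CPM) and cd74b (75.0 and 98.0 CPM). The next most abundant, MPEG1 (ENSDARG00000043093), overlapped, at 9.54 and 15.6 CPM in the prrx1b-/- plates, against 22.3 and 12.9 CPM in the wild-type plates. The 9 cardiomyocyte genes summed to 23.9 and 10.7 CPM in the prrx1b-/- plates, against 145 and 12.9 CPM in the wild-type plates. Wild-type plate 1 therefore stood apart in cardiomyocyte transcripts. The name PRRX1 belongs to a pair of genes in the name table, with 1506 and 34.0 transcripts, and because the allele is a nonsense mutation their levels do not check the labels. Because a plate is a mixture, fewer cells of a type and less RNA per cell cannot be told apart in a plate sum.

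Of the enzyme, ptgs2 was abundant and widely found. It had 15049 transcripts in the kept wells, in 1049 of 1453 wells (72.2%, exact Clopper-Pearson 95% interval 69.8% to 74.5%, which like all intervals here covers counting error only). Its level was 1187 and 1660 CPM in the prrx1b-/- plates, against 827 and 920 CPM in the wild-type plates. Both prrx1b-/- plates lay above both wild-type plates, and prrx1b-/- plate 2 was the highest of the 4. The mean was 1423 ± 334 CPM in prrx1b-/- cells and 874 ± 65.8 CPM in wild-type cells (SD, n = 2 plates each), and the fitted log2 fold change was 0.72 (SE 0.17). Among the 11191 genes tested between genotypes, 20.6% had both prrx1b-/- plates above both wild-type plates, and 44.8% did not overlap in either direction, so the order of the plates alone says little about ptgs2. The fold change was 0.48 on the log2 scale without prrx1b-/- plate 2, 0.61 without wild-type plate 1 and 0.94 without prrx1b-/- plate 1.

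The difference was visible in the wells as well as in the sums. A ptgs2 transcript was found in 76.8% and 78.7% of wells in the prrx1b-/- plates, against 65.3% and 67.9% in the wild-type plates. Because the prrx1b-/- wells were deeper, each well was also thinned to 1000 transcripts, where the expected shares were 46.8% and 52.3% in the prrx1b-/- plates, against 35.8% and 40.5% in the wild-type plates. The plates of the 2 genotypes did not overlap in either measure. Wells with 10 or more ptgs2 transcripts made up 39.1% and 41.3% of the prrx1b-/- plates, against 24.9% and 23.1% of the wild-type plates.

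The transcripts were unevenly spread over wells. The median well held 3 ptgs2 transcripts and the richest well 161. The 10% of wells with the most ptgs2 held 49.4% of its transcripts, and the 257 wells with 20 or more held 66.9%. The 5 richest wells, with 105 to 161 transcripts, were all in prrx1b-/- plate 2, and 4 of them had no ptger2 transcript. Beside these values, the injury epicardium markers (wt1b, aldh1a2, adh8a and cldc1) summed to 1896 and 2174 CPM in the prrx1b-/- plates, against 1667 and 1560 CPM in the wild-type plates. Within this list cldc1 differed most, with a mean of 683 CPM in prrx1b-/- plates and 393 CPM in wild-type plates. The plates overlapped for adh8a, at 382 and 388 CPM in the prrx1b-/- plates, against 426 and 349 CPM in the wild-type plates. The summed leukocyte genes ran the other way, mostly through cd74a and cd74b, as given above. The part of either list in the ptgs2 difference was not tested.

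The receptor was rarer. The gene ptger2 had 746 transcripts in 369 wells (25.4%, exact Clopper-Pearson 95% interval 23.2% to 27.7%). The plates held 53.3 and 53.5 CPM in the prrx1b-/- plates, against 73.5 and 55.6 CPM in the wild-type plates. The prrx1b-/- plates lay below both wild-type plates, but wild-type plate 2 was above them by little, and 24.2% of all genes tested had that order. The mean was 53.4 ± 0.156 CPM in prrx1b-/- cells and 64.5 ± 12.7 CPM in wild-type cells (SD, n = 2 plates each), with a fitted log2 fold change of -0.26 (SE 0.17), which was -0.07 without wild-type plate 1. Detection overlapped between genotypes, at 28.1% and 23.8% of wells in the prrx1b-/- plates, against 27.2% and 22.5% in the wild-type plates. After thinning to 1000 transcripts it was 7.29% and 6.08% in the prrx1b-/- plates, against 8.79% and 6.98% in the wild-type plates, which also overlapped.

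Most wells with ptger2 had few copies of it: 199 of the 369 had 1 transcript, and 5 had 10 or more. The richest well, in wild-type plate 1, had 25.1 ptger2 transcripts among 9821, no ptgs2 transcript and 131 transcripts of the pericyte list. The next, in prrx1b-/- plate 2, had 21.1 ptger2 and 12 ptgs2 transcripts. The other 3 had 13 ptger2 transcripts each, with 4 to 45.2 ptgs2 transcripts, so a high receptor count was found both with and without the enzyme.

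**Figure D1:**
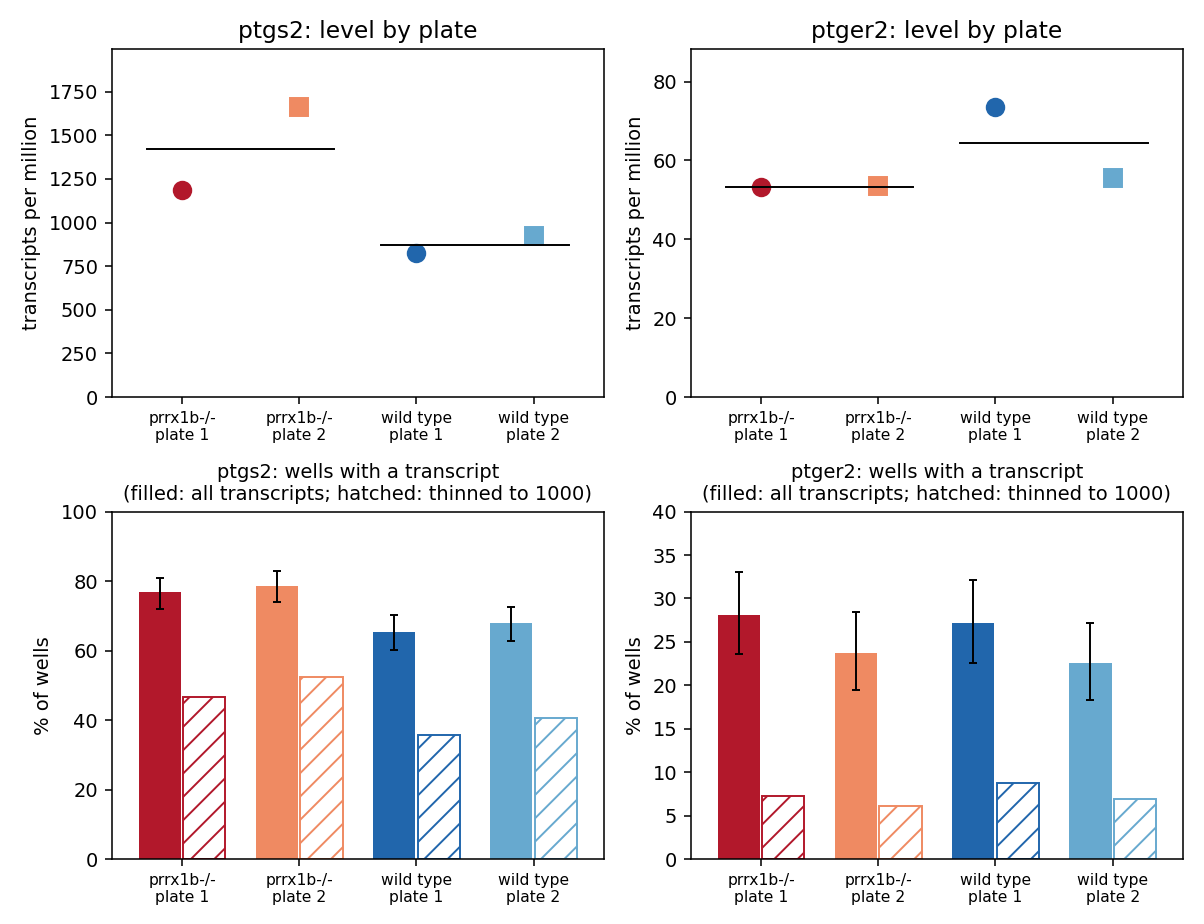
Level of ptgs2 and ptger2 in each plate (top, CPM, horizontal lines at the genotype means) and the percentage of wells with a transcript (bottom, filled bars with exact 95% intervals, and hatched bars after thinning each well to 1000 transcripts). The prrx1b-/- plates had 1187 and 1660 CPM of ptgs2, above the 827 and 920 CPM of the wild-type plates, whereas ptger2 stayed between 53.3 and 73.5 CPM in all 4 plates.

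The second copies were much lower. The second PTGS2 gene (ENSDARG00000010276) had 193 transcripts in 78 wells, at 18.0 and 16.8 CPM in the prrx1b-/- plates, against 9.61 and 14.9 CPM in the wild-type plates. Of these 78 wells, 74 also held ptgs2. The second PTGER2 gene (ENSDARG00000011434) had 26 transcripts in 21 wells. Reads that match both copies of a pair could have been assigned to either one, and how the authors treated them is not given in the sources used here.

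Detection of the pair also depended on the depth of a well. When the wells of each plate were divided into 4 equal parts by depth, the share of wells with ptgs2 was 43.6%, 68.2%, 83.7% and 93.4% from the shallowest to the deepest part, while its level was 821, 1090, 1307 and 1196 CPM. The level of ptger2 ran the other way, at 129, 133, 59.5 and 26.9 CPM. The level of ptger2 was thus higher in the 2 shallower parts than in the 2 deeper ones, and the pairing of the genes has to be read beside depth. The 83 wells below 1000 transcripts held 16 transcripts of ptgs2 in 10 wells, at 657 CPM, and 1 transcript of ptger2, so single ptgs2 transcripts also occurred where little other RNA was found.

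Whether enzyme and receptor share wells was then examined. Both were found in 269 wells, where the product of their separate shares gives 266 wells. The receptor was detected in 25.6% of wells with ptgs2 (95% interval 23.0% to 28.4%) and in 24.8% of wells without it (20.6% to 29.3%), an odds ratio of 1.05. Per plate the odds ratio was 0.74 and 1.05 in prrx1b-/- cells, against 1.11 and 1.39 in wild-type cells, so plates lay on both sides of 1. Wells with ptgs2 were deeper, with a median of 8313 transcripts, against 3713 in wells without it. After thinning to 1000 transcripts the odds ratio was 0.83. From the shallowest to the deepest part, ptger2 was detected in 21.4%, 32.8%, 22.1% and 25.6% of wells with ptgs2. In wells without ptgs2 the shares were 20.4%, 35.7%, 27.1% and 4.17%, the last among only 24 wells. The correlation of both levels over wells, averaged over the plates, was r = -0.03 (-0.09 and -0.02 in the prrx1b-/- plates, -0.06 and 0.05 in the wild-type plates). Neither co-detection nor correlation thus set the genes together or apart in all plates.

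The pooled level of ptger2, however, was lower in wells where more ptgs2 transcripts were counted, and such wells were deeper. Taken as levels over single wells, both genes had the mean correlation of only r = -0.03 given above. The pooled level of ptger2 was 49.6 CPM in wells with ptgs2 and 108 CPM in wells without it. Over wells with 0, 1, 2 to 9, 10 to 19 and 20 or more ptgs2 transcripts it was 108, 72.8, 53.3, 53.9 and 37.1 CPM, while the share of wells with ptger2 stayed between 23.0% and 26.8%. In the wells with 20 or more ptgs2 transcripts the level was 33.7 and 38.9 CPM in the prrx1b-/- plates, against 40.3 and 38.0 CPM in the wild-type plates, a narrow range. The median depth of these wells was 12992 transcripts, against 3713 in the wells with none, and the part of depth in this pattern was not tested.

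**Figure D2:**
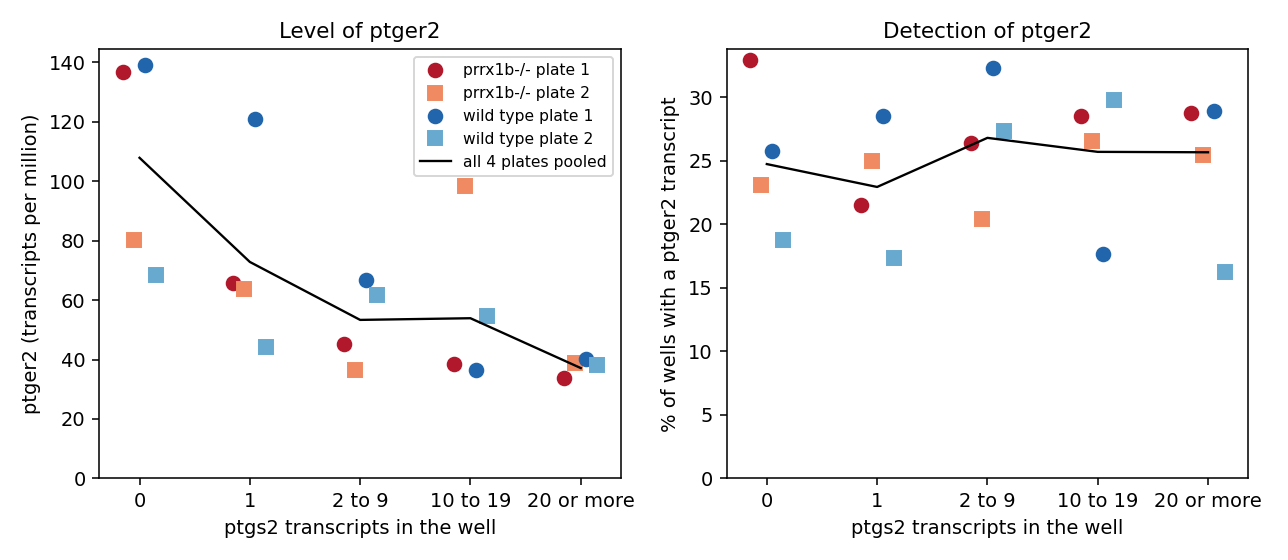
Level of ptger2 in CPM (left) and percentage of wells with a ptger2 transcript (right) for wells grouped by their number of ptgs2 transcripts. Points are plates and the line pools all 4 plates; the pooled level is 108 CPM in wells without ptgs2 and 37.1 CPM in wells with 20 or more, while the pooled share stays between 23.0% and 26.8%.

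The genes whose level followed ptgs2 most closely were taken by the mean Pearson correlation over the 4 plates, among 8394 genes found in at least 5% of wells. Only genes with a correlation above 0 in every plate were listed. Wells share plate and depth, so these values carry no p, and over all genes the median was 0.01 and the 99th percentile 0.23. The highest was DAB2, a clathrin adaptor for cargo receptors (r = 0.43), followed by cldc1 (0.37), the complement gene c4b (0.36), the chemokine cxcl18b (0.35) and RDH10, a retinol dehydrogenase (0.34). The other 5 were adh8a, an alcohol dehydrogenase (0.33), TNFAIP6, which binds hyaluronan (0.33), si:dkey-151g10.6 (0.30), the metalloreductase gene STEAP4 (0.30) and CEMIP, which takes part in hyaluronan breakdown (0.30). Being above 0 in every plate was the rule for this list and not a result, and 2093 of the 8394 genes met it. Among genes below 0 in every plate, the most negative was cd34, a surface marker of progenitor, endothelial and interstitial cells in mammals (-0.37). It was followed by crip1 (-0.31), KCNE4, a potassium channel subunit (-0.28), and the basement membrane collagen COL4A1 (-0.27).

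The receptor kept other company and had weaker correlations, with a 99th percentile of 0.13 over all genes. Among genes above 0 in every plate, its highest were higd1a, a hypoxia-inducible mitochondrial gene (0.24), and COL4A1 (0.23). They were followed by SIK1, a kinase whose transcript cyclic AMP induces in mammals (0.22), the polyamine acetyltransferase gene SAT1 (0.20) and DENND2B (0.20). Next came vamp2, a vesicle fusion protein (0.20), rem1, a small GTPase (0.20), crema, a cyclic AMP response modulator (0.19), and the unnamed genes ENSDARG00000067755 (0.19) and ENSDARG00000041190 (0.18). The rule of being above 0 in every plate was met by 612 of the 8394 genes. It left out RGS5 of the pericyte list, whose mean of 0.204 was above the 0.202 of SAT1 but whose lowest plate was at -0.02. The lowest among genes below 0 in every plate was ALDH1A2, which makes retinoic acid (-0.22). COL4A1 thus stood among the highest for the receptor and among the lowest for the enzyme. After thinning to 1000 transcripts, 7 of the 10 genes of ptgs2 but only 2 of the 10 of ptger2 were again among the 10 highest, so the receptor's list is the less stable.

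Markers of cell types in the injured epicardium were compared with the pair. All 4 injury epicardium genes were above 0 in every plate with ptgs2, at cldc1 0.37, adh8a 0.33, wt1b 0.25 and ALDH1A2 0.25, and 3 of the 4 were below 0 in every plate with ptger2. Of 11 fibroblast genes, 6 were above 0 and 2 below 0 in every plate with ptgs2 (median 0.11). With ptger2, 7 of these 11 were below 0 in every plate and 0 above (median -0.10), so this pattern was not particular to injury epicardium genes. All 4 remote epicardium genes (tcf21, tbx18, rtca and hsph1) were below 0 in every plate with ptgs2, with a median of -0.11. The gene hsph1 is also a heat shock gene, and of 14 heat shock genes 8 were below 0 in every plate with ptgs2. With ptger2, 1 of the 4 remote epicardium genes was above 0 and 1 below 0 in every plate. Of 9 pericyte genes, 7 were below 0 in every plate with ptgs2 (median -0.17) and 6 were above 0 in every plate with ptger2 (median 0.14), among them NOTCH3 (-0.23 with ptgs2, 0.14 with ptger2), a mural cell receptor, and KCNJ8 (-0.19 and 0.16), a potassium channel of pericytes. Of 16 cyclic AMP response genes, 7 were above 0 in every plate with ptger2, as against 2 with ptgs2. For 25 immediate early genes these counts were 15 with ptger2 and 7 with ptgs2. The part of cell type or depth in them was not tested. Over all genes, 7.29% were above 0 in every plate with ptger2 and 24.9% with ptgs2, and 21.0% were below 0 in every plate with ptger2 and 11.6% with ptgs2.

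**Figure D3:**
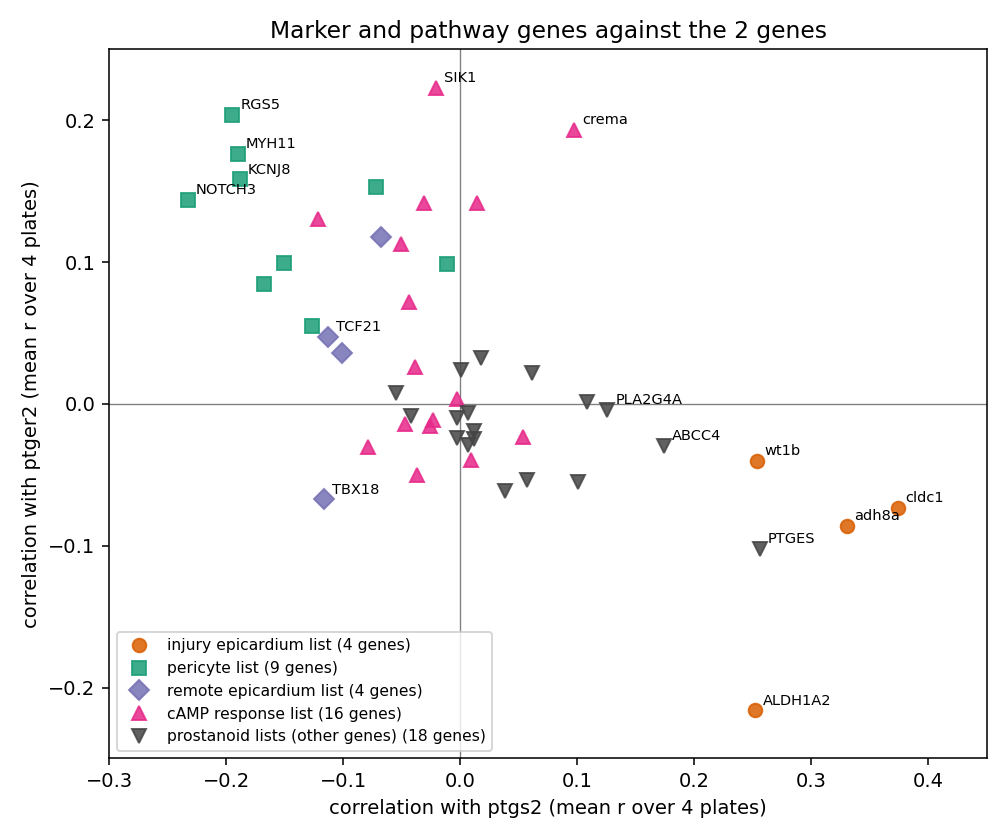
Mean correlation over the 4 plates with ptgs2 (horizontal) and with ptger2 (vertical) for genes of the marker and pathway lists. The 4 injury epicardium genes lie at the right, between 0.25 and 0.37 for ptgs2, and below 0 for ptger2, whereas the 9 pericyte genes lie at the upper left.

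The same opposition appeared as levels. Wells were ranked within their plate by the summed share of the injury epicardium genes and divided into 4 equal parts. From the lowest to the highest part, ptgs2 was 503, 873, 1247 and 1744 CPM, and ptger2 was 96.4, 71.5, 53.0 and 31.4 CPM. In the highest part ptgs2 was 1712 and 2424 CPM in the prrx1b-/- plates, against 1297 and 1341 CPM in the wild-type plates. Ranked by the pericyte genes, ptgs2 was 1276, 1281, 1257 and 700 CPM, and ptger2 was 30.2, 44.7, 56.6 and 139 CPM. In the part richest in pericyte genes ptger2 was 126 and 161 CPM in the prrx1b-/- plates, against 164 and 101 CPM in the wild-type plates, above every plate of the part poorest in them (18.5 and 21.7 CPM, against 54.6 and 28.0 CPM). Depth moved with both rankings, with a median of 4193 transcripts in the lowest and 9121 in the highest part for injury epicardium genes, and 9108 and 4335 for pericyte genes. Its part was not tested.

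No cell annotation was used from the study, so wells were grouped anew into 10 clusters by their expression with both genes left out. The level of ptgs2 was highest in a cluster of 107 wells led by c7b, gcga and ggt1a, at 2438 CPM and in 95.3% of its wells. All 4 injury epicardium markers were raised there, that is, above the mean of the 10 clusters on a log scale. It is called injury epicardium-like, although none of them was among its 10 leading genes. It reached 2270 and 2889 CPM in the prrx1b-/- plates, against 1588 and 1929 CPM in the wild-type plates. A second cluster, of 121 wells led by si:dkey-238c7.13 and si:dkeyp-1h4.9, was injury epicardium-like by the same rule, with all 4 markers raised. There ptgs2 was 1167 CPM, against 1178 CPM over all kept wells. By plate it was 1629 and 1457 CPM in the prrx1b-/- plates, against 765 and 1348 CPM in the wild-type plates. These values lay below the c7b cluster in each plate, but above the level of the whole plate in prrx1b-/- plate 1 and wild-type plate 2. The prrx1b-/- wells made up 25.6% of this cluster and 72.9% of the c7b cluster, so the pooled levels compare unlike mixes of genotype. The next levels were 1470 CPM in a cluster of 248 wells led by AATK and rem1, and 1254 CPM in a fibroblast-like cluster of 211 wells led by elnb and including POSTN and FN1. The lowest was 405 CPM in a pericyte-like cluster of 157 wells led by cxcl12b, with RGS5 and MYH11 beside the stress-responsive genes FOS and egr2a, and 568 CPM was found in a cluster of 109 wells led by heat shock genes. That cluster was at 319 and 1225 CPM in the prrx1b-/- plates, against 311 and 224 CPM in the wild-type plates. Without prrx1b-/- plate 2 it was at 299.5 CPM, below the pericyte-like cluster at 349.6 CPM. The highest level was 6.02 times the lowest, but all 9 pairs of neighbours in this order had plates that overlapped, and 6 clusters lay wholly below the highest.

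The receptor ranked the clusters otherwise. It was highest in the cluster led by AATK and rem1, at 175 CPM (182 and 89.2 CPM in the prrx1b-/- plates, against 238 and 208 CPM in the wild-type plates), followed by the heat shock cluster at 119 CPM and the pericyte-like cluster at 117 CPM. The injury epicardium-like cluster led by c7b had 42.3 CPM, and no transcript was found there in wild-type plate 1, which gave it only 8 wells. The injury epicardium-like cluster of 121 wells had 40.6 CPM. The lowest was 18.5 CPM in a cluster of 130 wells led by HBE1 and apoeb. Again all 9 pairs of neighbours overlapped. The 3 clusters highest for ptger2 were also the shallowest, with medians of 4453, 3717 and 3549 transcripts, against 14948 in the lowest. A ptger2 transcript was found in 35.9%, 27.5% and 26.8% of their wells, against 18.5% in the lowest. The next lowest cluster, led by COL11A1 and COL2A1, was at 20.6 CPM, with ptger2 in 26.5% of wells and a median of 16718 transcripts. The part of depth in this order was not tested. Leiden clustering separated 80 wells led by cxcl12b, RGS5, SLC20A1 and MYH11 as a sharper pericyte-like group, where ptger2 was 392 CPM and ptgs2 132 CPM. There ptger2 was 337 and 314 CPM in the prrx1b-/- plates, against 706 and 110 CPM in the wild-type plates. Its wells had a median of 2327 transcripts, and its 104 ptger2 transcripts were 13.9% of all. In the c7b, gcga and ggt1a cluster of the same clustering (67 wells) ptgs2 was 2882 CPM and ptger2 14.1 CPM. In the first of these groups the receptor was high and the enzyme low, and in the other the reverse. Not all clusters of that clustering were so opposed. In 182 wells led by ADM and ptgdsb.1, ptgs2 was 1781 CPM and ptger2 149 CPM, with 20.4% of all ptger2 transcripts. In 141 wells led by mb and STMN4, they were 964 and 149 CPM, with 17.7% of all ptger2 transcripts.

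**Figure D4:**
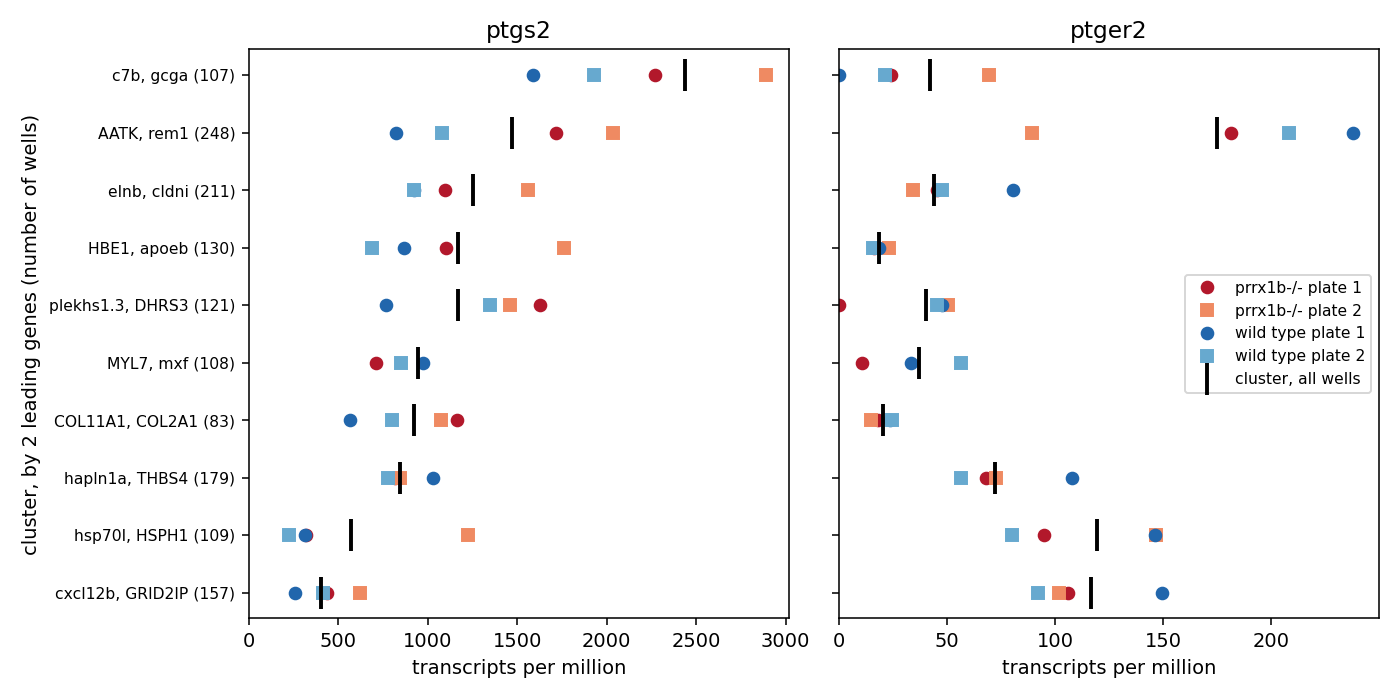
Level of ptgs2 (left) and ptger2 (right), in CPM, in 10 clusters named by their leading genes with the number of wells in parentheses, ordered by ptgs2. Points are plates with enough wells and vertical ticks pool all wells; ptgs2 runs up to 2438 CPM in the cluster led by c7b and gcga, and ptger2 up to 175 CPM in the one led by AATK and rem1.

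Within clusters, both prrx1b-/- plates had more ptgs2 than both wild-type plates in 8 of the 9 clusters in which every plate had a value, and overlapped in 1, the cluster of 179 wells led by hapln1a and THBS4 (817 and 844 CPM in the prrx1b-/- plates, against 1027 and 775 CPM in the wild-type plates). With Leiden clustering it was 7 of 11, with 4 overlapping, and in neither did wild-type plates lie above. For ptger2 the plates overlapped in 5 of the 9 clusters, wild-type plates lay above in 3 and prrx1b-/- plates in 1. All clusters were cut from the same 4 plates, so these counts are not independent of the plate levels. The cluster left out of these 9 had no value in prrx1b-/- plate 2, which gave it 1 well. It held 108 wells led by MYL7, of which 5.6% were from prrx1b-/- plates and 89 wells came from wild-type plate 1. There ptgs2 was 711 CPM in prrx1b-/- plate 1, from 5 wells, below the 974 and 849 CPM of the wild-type plates.

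The rest of the pathway was taken from 4 lists of prostanoid genes by role. Some listed symbols matched no named gene with a transcript: 2 in supply, 4 in synthesis, 1 in transport and breakdown and 7 among receptors. What follows covers the matched genes only. Apart from ptgs2 and ptger2 the lists held 40 genes with a transcript, of which 31 had at least 20, the chosen pair not counted. Of the 26 that passed the filter on low counts, 0 passed an adjusted p of 0.05 between genotypes (edgeR quasi-likelihood fit, Benjamini-Hochberg over all genes), where 0.974% of all 11191 genes did, and 0 by DESeq2, where 1.51% did. At an unadjusted p under 0.05 there were 7 by edgeR, where 14% of all genes lay, and 4 by DESeq2, where 7.28% lay. Without wild-type plate 2, 3 genes passed (cbr1l, PTGER4 and SLCO2A1, all higher in prrx1b-/- cells), in a fit that called 4.74% of all 12266 genes. The median log2 fold change of the 26 was 0.05, against -0.01 over all genes tested. SORT-seq counts the 3' end of each transcript, so the following levels do not scale with gene length.

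In supply, PLA2G4A (ENSDARG00000024546), a cytosolic phospholipase that frees arachidonic acid, led with 122 and 160 CPM in the prrx1b-/- plates, against 98.1 and 105 CPM in the wild-type plates. The groups did not overlap, but the difference did not pass the test (log2 fold change 0.49, SE 0.17, adjusted p = 0.21). The other 8 supply genes with at least 20 transcripts (ABHD6, PLA2G6, DAGLA, PLAA, PLA2G12A, faah, FAAH2 and mgll) lay between 1.90 and 11.7 CPM in any plate. Among the matched genes, supply was thus carried, in transcripts, mostly by 1 gene.

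Among the synthases, PTGES, the terminal synthase of prostaglandin E2, was second to ptgs2, with 398 and 445 CPM in the prrx1b-/- plates, against 354 and 339 CPM in the wild-type plates (log2 fold change 0.30, SE 0.14, adjusted p = 0.35). It was found in 64.8% of wells, and its correlation of 0.26 with ptgs2 was the highest of the prostanoid genes, while that with ptger2 was -0.10. Next were PTGES3 (66.6 to 71.6 CPM over the plates) and cbr1l, a carbonyl reductase, with 50.4 and 52.9 CPM in the prrx1b-/- plates, against 31.9 and 37.7 CPM in the wild-type plates (log2 fold change 0.59, SE 0.18, adjusted p = 0.16). The constitutive cyclooxygenase ptgs1 was at 8.75 and 13 CPM in the prrx1b-/- plates, against 16.5 and 8.75 CPM in the wild-type plates, which overlapped, and ptgs2 had 15049 transcripts where ptgs1 had 149. CBR1, PTGES2, the thromboxane synthase TBXAS1 and the prostaglandin D synthase ptgdsb.1 lay between 5.20 and 11.4 CPM. The prostacyclin synthase PTGIS was at 4.77 and 6.36 CPM in the prrx1b-/- plates, against 2.06 and 3.04 CPM in the wild-type plates (adjusted p = 0.31), and ptgdsb.2 and prxl2b had under 50 transcripts each.

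Transport and breakdown were lowly expressed. ABCC4, an exporter of prostaglandins, led with 45.6 and 51.2 CPM in the prrx1b-/- plates, against 59.4 and 48.7 CPM in the wild-type plates. It correlated with ptgs2 at 0.17. The reductase gene ptgr1.1 was at 16.2 and 17.1 CPM in the prrx1b-/- plates, against 26.8 and 24.7 CPM in the wild-type plates (log2 fold change -0.61, SE 0.21, adjusted p = 0.21). SLCO2A1, which takes prostaglandins up for degradation, was at 10.9 and 13 CPM in the prrx1b-/- plates, against 3.77 and 6.09 CPM in the wild-type plates (log2 fold change 1.29, SE 0.36, adjusted p = 0.12), the lowest adjusted p of the 26. HPGD, the dehydrogenase that inactivates prostaglandins, had 33 transcripts, PTGR2 21 and CBR4 20. PTGR2 and CBR4 were below the filter on low counts and were not tested, and none of the others passed the test.

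Of the receptors, PTGIR, for prostacyclin, was at 37.1 and 43.7 CPM in the prrx1b-/- plates, against 33.3 and 54.8 CPM in the wild-type plates, which overlapped. PTGER4, which like EP2 raises cyclic AMP, was at 41.6 and 41.9 CPM in the prrx1b-/- plates, against 21.3 and 33.9 CPM in the wild-type plates (log2 fold change 0.62, SE 0.23, adjusted p = 0.25). PTGER3 was at 9.01 and 7.23 CPM in the prrx1b-/- plates, against 13 and 7.61 CPM in the wild-type plates. With 746 transcripts, ptger2 was the most abundant of the 7 matched receptor genes, ahead of PTGIR with 532 and PTGER4 with 453. Another 7 listed receptor symbols had no match and are outside this ranking. Neither PTGIR nor PTGER4 followed ptger2 over all clusters. PTGIR was at 13.1 CPM in the cluster led by AATK and rem1, where ptger2 was 175 CPM. It was at 75.5 CPM in the cluster led by COL11A1 and COL2A1, where ptger2 was 20.6 CPM. PTGER4 was at 42.6 CPM in the AATK and rem1 cluster, above its 35.5 CPM over all wells. It was at 14.4 and 8.10 CPM in the pericyte-like and heat shock clusters, where ptger2 was 117 and 119 CPM.

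**Figure D5:**
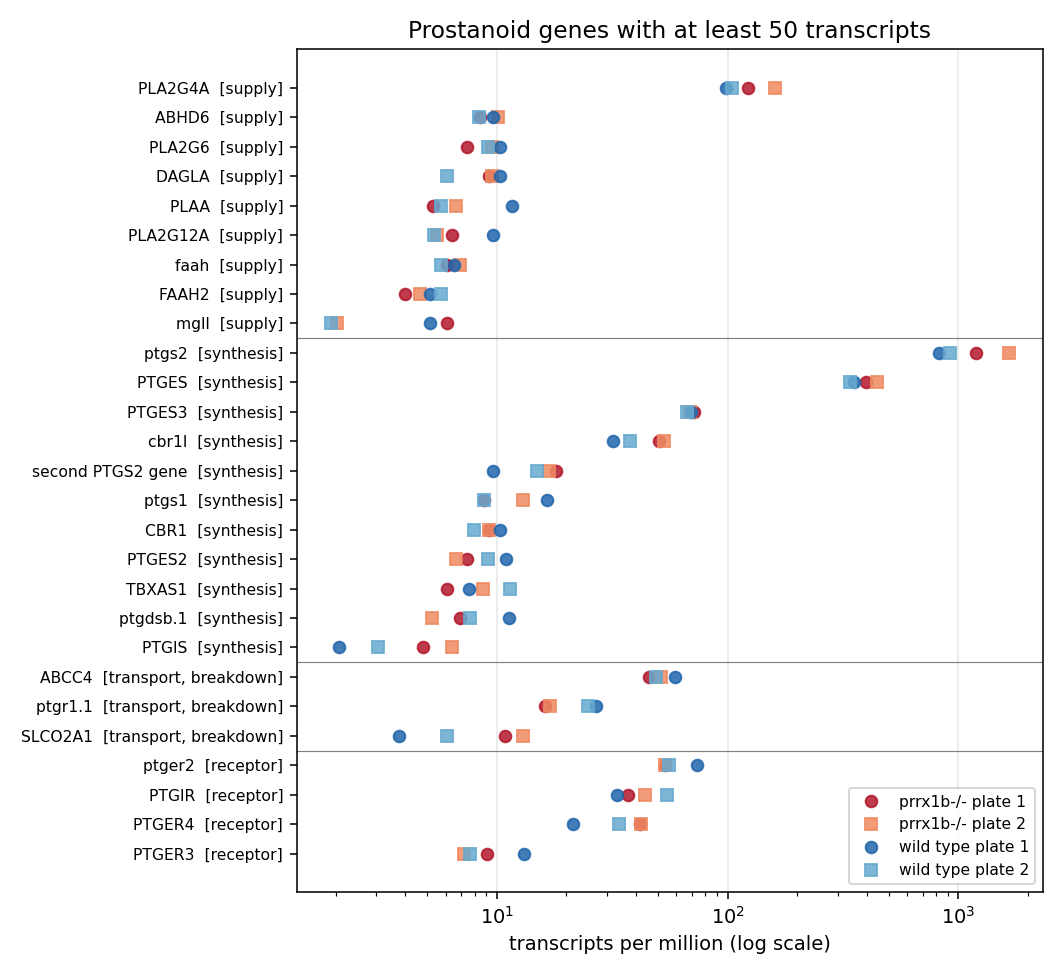
Level of the 27 prostanoid genes with at least 50 transcripts in each plate, in CPM on a log scale, ordered by role (supply, synthesis, transport and breakdown, receptors) and then by level. The highest are ptgs2 and PTGES in synthesis and PLA2G4A in supply, and no receptor shown exceeds 73.5 CPM in any plate.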

How the data were processed

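The study sorted mCherry-positive cells into 384-well plates and sequenced them by SORT-seq. The authors deposited, per well and gene, expected counts of transcripts, corrected for repeated molecular barcodes, after mapping to the Zv9 transcriptome (BWA 0.6.2 in the submitters' processing notes). The deposited expected counts match the correction for 6-base barcodes (4096 sequences), although the methods give 4 bases. Rows without an ENSDARG identifier were left out. Wells with at least 1000 transcripts were kept (1453, with 1009 to 61436 transcripts each), and sums per plate were rounded to whole numbers.

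Genotypes (2 plates each) were compared across all genes with edgeR 4.0.16 (TMM, filterByExpr, quasi-likelihood test, Benjamini-Hochberg adjustment, threshold 0.05). DESeq2 1.42.0 was an alternative. CPM were computed from plate sums, correlations from log2(1 + transcripts per 10000) within each plate, and thinned shares as exact expectations. Wells were grouped by k-medoids (10 clusters) on 1 - Pearson correlation, without both genes, the 20 noisiest genes and mitochondrial genes. No doublet caller was run. Of the genes with a transcript, 16179 of 20880 had a symbol in the name table. The fit was tested on simulated data.

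The members and gene lists were chosen with earlier results of these data known. The text names every matched prostanoid gene with at least 20 transcripts. It also names list genes past the threshold, and the 10 genes with the highest mean correlation above 0 in every plate. The lowest correlated genes, cluster leaders and single list members were named after their values were seen. Plate numbers carry no stated pairing, and same-numbered plates did not deviate together.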

Additional observations from a re-analysis of the deposited data

Results flagged for a closer look

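Wells below the limit of 1000 transcripts, which entered no comparison, still held 16 transcripts of ptgs2, above the fixed limit of 3 set for this flag. These 83 wells had 24361 transcripts together, so ptgs2 was at 657 CPM in them, against 1178 CPM in the wells kept. The gene ptger2 had 1 transcript there.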

How the results depend on the processing

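The fold change of ptgs2 stayed above 0 under every alternative run, between 0.48 and 0.94 on the log2 scale. That of ptger2 stayed below 0 but moved to -0.46 when wells were thinned to 1000 transcripts and lay between -0.39 and -0.07 with a plate left out. The detection difference for ptgs2 (11.2 percentage points, prrx1b-/- minus wild type) was 9.21 points in wells thinned to 2000 transcripts and 9.88 to 12.5 points with a plate left out. That for ptger2 (1.11 points) had no stable sign, at -1.20 and -1.69 points after thinning to 1000 and 2000 transcripts and -1.21 to 3.43 points with a plate left out. The odds ratio of shared wells was 0.77 after thinning to 2000 transcripts and 0.94 to 1.16 with a plate left out. Of the 10 genes listed for ptger2, 2 stayed among the 10 highest after thinning and 5 to 9 with a plate left out. With 8 clusters the highest level of ptgs2 was 1670 CPM in another cluster (324 wells, led by ggt1a, AATK and rem1). At 160 CPM that cluster was also highest for ptger2. The injury epicardium-like cluster of that setting, with 179 wells, was at 1381 CPM. The highest level of ptger2 was 512 CPM with 12 clusters and 392 CPM with Leiden clustering. The causes were not tested. Of the prostanoid genes, 1 (SLCO2A1) was called without the low-count filter, and 0 to 3 with a plate left out (cbr1l, PTGER4 and SLCO2A1, all without wild-type plate 2).

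Same-numbered plates had deviations that correlated at r = 0.04, so the numbers were not taken as pairs. With plate number as a replicate block, 476 genes were called in place of 109, and 1 prostanoid gene (SLCO2A1), while the ptgs2 fold change was 0.70 and that of ptger2 -0.25. DESeq2 called 169 genes, the fit without the low-count filter 523, wells thinned to 1000 transcripts 71, and the fits without a plate 99 to 582 (579 without wild-type plate 1, 582 without wild-type plate 2). Of the 369 wells with ptger2, 199 held 1 transcript.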

Other observations

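Of 21 inflammatory response genes found in at least 5% of wells, 10 had a correlation above 0 in every plate with ptgs2, as had 24.9% of all genes, and 3 with ptger2, as had 7.29% of all genes. The cytokine gene il11a correlated with ptgs2 at 0.30 and il11b at 0.19. By edgeR's quasi-likelihood test 2 of the 21 genes tested were higher in prrx1b-/- cells and 0 lower: il11b, at 226 and 190 CPM in the prrx1b-/- plates, against 124 and 114 CPM in the wild-type plates (log2 fold change 0.83, adjusted p = 0.031), and TNFAIP3, an inhibitor of NF-kappaB signalling (log2 fold change 0.77, adjusted p = 0.030). Over all genes 0.357% were called higher. Of the injury epicardium markers, cldc1 was also higher, at 602 and 764 CPM in the prrx1b-/- plates, against 401 and 384 CPM in the wild-type plates (log2 fold change 0.81, adjusted p = 0.031).

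The second PTGS2 gene was not highest where ptgs2 was. It was at 44.6 CPM in the cluster of 83 wells led by COL11A1 and COL2A1, against 18.8 CPM in the injury epicardium-like cluster led by c7b. No transcript of it was found in the pericyte-like cluster of 157 wells. Of the 10 genes of the neighbouring leukotriene branch with a transcript, the highest were mgst3b at 115 CPM, GPX4 at 77.4 CPM and gpx4a at 41.8 CPM, while LTA4H was at 10.6 CPM and ALOX5, the first enzyme of leukotriene synthesis, at 2.66 CPM. Of these genes, 0 of the 7 tested passed an adjusted p of 0.05 between genotypes by edgeR's quasi-likelihood test. Over all genes 0.974% did, so 0 calls among 7 genes say little.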
